A study of Drosophila melanogaster with 8 samples.

Results

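The 9 genes followed here build, coat and break down stored triglyceride in the fruit fly Drosophila melanogaster. They were chosen by name: the lipid droplet coat proteins Lsd-1 and Lsd-2, the lipases bmm and Hsl, the synthesis enzymes mino, Lpin and mdy, and Acsl and Fatp, which activate or take up fatty acids. All 9 were found among the 15146 genes of each table, 7 under the name given and 2 through their gene identifier, Hsl listed as CG11055 and mino as CG5508. The groups were the sperm of adult w1118 males that ate food with 300 g/L sugar (high sugar), the sperm of such males on 30 g/L (medium sugar), whole F1 embryos of high sugar males at stage 17, the last embryonic stage, and the same kind of embryos from medium sugar males. The strain w1118, a common laboratory stock, is shared by all 4 groups. The labels do not state the kind of sugar, the age of the males, the time on the food, the mothers' food or the way sperm were collected. Each group holds 2 libraries, and the deposited tables give 1 value per gene and group in FPKM, the number of sequenced fragments relative to transcript length and to the library's total. Levels therefore stand without a spread between libraries, and the depth is unknown.

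Flies store surplus fat as triglyceride in lipid droplets, above all in the fat body, the organ that serves as both liver and adipose tissue. Fatty acids are first joined to coenzyme A and then added stepwise to glycerol phosphate by acyltransferases, and a phosphatase removes the phosphate before the last acyl chain is attached. Perilipins coat the finished droplet and govern the access of lipases, which release the fatty acids when fuel is needed. Loss of the lipase bmm makes flies fat, and loss of Lsd-2 makes them lean. In the BDGP6 annotation, where 8 of the 9 genes (all but Fatp) were found, the longest proteins run from 352 residues for Lsd-2 to 1089 for Lpin, and the transcripts from 2 for bmm to 11 for Lpin. The tables give 1 value per gene, so transcripts of a gene cannot be told apart.

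Spermatid and sperm markers were present in the sperm table, beside RNA of other cell types. All 16 spermatid and sperm markers averaged at least 1 FPKM in the sperm table, where they summed to 1826 FPKM in high sugar and 802 FPKM in medium sugar sperm, against 2.12 FPKM in high sugar and 3.37 FPKM in medium sugar embryos. The 11 muscle markers summed to 3376 FPKM in high sugar and 3504 FPKM in medium sugar sperm, and to 7283 FPKM in high sugar and 6550 FPKM in medium sugar embryos. Of the 11 fat body markers, those for larval serum proteins and yolk proteins were below 1 FPKM in all 4 groups, and so were Fbp1 and Fbp2. The serum and yolk proteins are proteins of larvae and of yolk, whereas the samples were embryos and the sperm of males. The low levels of these markers do not show that fat body RNA was absent, and its amount was not tested. The fat body markers at an average of 1 FPKM or more were Tsf1 and Adh in sperm and Adh alone in embryos. In embryos Adh had 254 FPKM with high sugar and 267 FPKM with medium sugar fathers. The values are of bulk samples, so fewer cells of a type and less RNA per cell cannot be told apart.

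The diet comparisons ask whether the sugar content of the males' food was accompanied by different levels of these RNAs in their sperm and in their offspring. None of the 9 genes passed in either tissue. In the authors' deposited table for sperm, 0 of 9 had an adjusted p under 0.05, where 0.341% of 6453 tested genes were called, and 0 of 9 had an unadjusted p under 0.05, where 3.95% of tested genes did. In the authors' deposited table for embryos the counts were again 0 of 9, where 0.807% of 10163 tested genes were called by adjusted p and 3.34% had an unadjusted p under 0.05. The unadjusted p-values of the 9 ran from 0.382 to 0.824 in sperm and from 0.123 to 0.97 in embryos, and adjusted each was 0.996 in sperm and 0.999 in embryos. With shares this low, 0 of 9 lies near the background. The authors' test was the only one that these values allowed, and Cuffdiff is the tool for it that the submitters' processing notes name.

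The ratios of high over medium sugar ran from 0.824 to 1.71 in sperm, with 4 genes above 1 and 5 below, and from 0.713 to 1.15 in embryos, with 3 above and 6 below. On the log2(FPKM + 0.1) scale the median ratio of the 9 genes was -0.08 in sperm, against -0.05 over all tested genes, and -0.22 in embryos, against -0.04. Of all tested genes, 55.1% in sperm and 56.6% in embryos lay below 0. Cuticle genes, 120 taken by name (Cpr, Twdl, Lcp and Ccp84A) and not by stage, moved with the embryo groups. Of the 68 tested, 19 were called higher in the authors' deposited table (0.708% of tested genes were called higher). The 120 genes summed to 3595 FPKM in high sugar and 1573 FPKM in medium sugar embryos, and 16 were listed at 0 in both. Spermatid markers moved with the sperm groups, with 3 of 15 tested called higher in the authors' deposited table (0.325% of tested genes were called higher) and all 15 ratios above 1. The 7 accessory gland and ejaculatory duct markers summed to 1080 FPKM in high sugar and 558 FPKM in medium sugar sperm, with 1 called higher (0 when the adjustment was recomputed over the tested genes). The called gene was Dup99B, at 778 FPKM in high sugar and 254 FPKM in medium sugar sperm, and the other 6 summed to 302 FPKM and 303 FPKM. Of those 6, Acp53Ea (8.76 FPKM in high sugar and 28.0 FPKM in medium sugar sperm) and PebIII (207 and 248 FPKM) had ratios below 1. Of the 2 fat body markers tested in sperm, 1 was called lower in the authors' deposited table (0.0155% of tested genes were called lower). This was Tsf1, at 107 FPKM with high and 429 FPKM with medium sugar (adjusted p = 0.00749 in the authors' deposited table). Adh had 315 FPKM with high and 297 FPKM with medium sugar and was not called. Cyp4g1, a marker of the oenocytes that process lipid, had 29.9 FPKM in high sugar and 8.29 FPKM in medium sugar sperm and was not called, and had 51.9 FPKM in high sugar and 52.9 FPKM in medium sugar embryos. The part of these shifts in the ratios of the 9 genes was not tested.

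An error for each ratio was taken from the authors' deposited p-value, as the standard error that gives this p if the log2 ratio follows a normal distribution. This is an approximation, and the 95% intervals below rest on it. The implied standard errors of the log2 ratio ran from 0.31 to 0.89 for the 9 genes in sperm and from 0.26 to 0.60 in embryos. By the same reckoning an unadjusted p of 0.05 needed a change of 1.53-fold to 3.35-fold in sperm, depending on the gene. In embryos it needed 1.42-fold to 2.27-fold, and in both tissues this holds for either direction. Smaller changes would not have reached this unadjusted p, and a call by adjusted p needed larger changes still. In the authors' deposited table for embryos, the called cuticle gene Cpr56F had an unadjusted p of 0.0004 and an adjusted p of 0.0496. For Dup99B, called in sperm, the authors' deposited table gives 0.00025 and 0.0314.

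**Figure D1:**
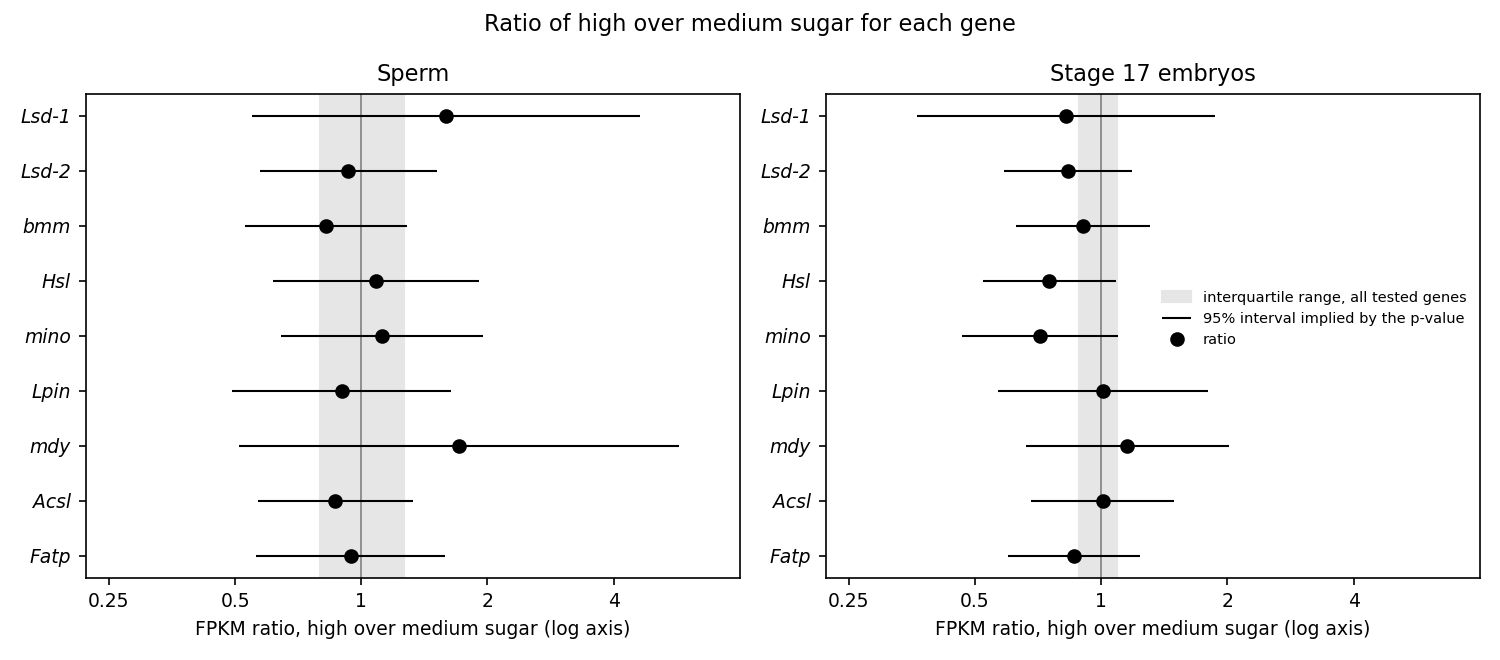
Ratio of FPKM in high over medium sugar for each gene (points, log axis), in sperm on the left and in stage 17 embryos on the right, with the 95% interval implied by the authors' p-value (lines) and the interquartile range of all tested genes (grey). Each of the intervals includes 1, and those of Lsd-1 and mdy in sperm reach up to ratios of 4.63 and 5.74.

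Of the perilipins, Lsd-1 is known to promote hormone-stimulated lipolysis and to bring Hsl to the droplet, and Lsd-2 to shield the droplet from lipases. Lsd-2 had 35.7 FPKM in high sugar and 38.3 FPKM in medium sugar sperm, a ratio of 0.932 (95% interval 0.574 to 1.51). In embryos Lsd-2 had 35.5 FPKM with high sugar and 42.6 FPKM with medium sugar fathers, a ratio of 0.833 (0.587 to 1.18). As deposited, its level was between 35.5 and 42.6 FPKM in all 4 groups, and it was the perilipin with the higher level in each of them. Lsd-1 had 8.42 FPKM in high sugar and 5.28 FPKM in medium sugar sperm, a ratio of 1.59 (0.548 to 4.63), and 5.42 FPKM in high sugar and 6.56 FPKM in medium sugar embryos, a ratio of 0.826 (0.364 to 1.87). The unadjusted p of Lsd-1 was 0.392 in sperm and 0.647 in embryos in the authors' deposited table, and that of Lsd-2 was 0.776 and 0.308. The FPKM of Lsd-2 was 4.24 times that of Lsd-1 in high sugar and 7.24 times in medium sugar sperm, and 6.55 and 6.49 times in high and medium sugar embryos. Lsd-2 lies on the X chromosome at 14965489 to 14970236 (BDGP5) and shares its locus with no other gene of the tables. Lsd-1 is listed on 3R at 19589579 to 19593174, a locus it shares with CG10214. In the newer BDGP6 annotation CG10214 is on the opposite strand and overlaps 144 exonic bases of Lsd-1, 7.35% of its exons. The sources used here do not say whether fragments were assigned by strand, so part of the Lsd-1 level is uncertain.

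Of the lipases, bmm is the fly counterpart of mammalian adipose triglyceride lipase and controls basal fat mobilisation, and Hsl is the counterpart of hormone-sensitive lipase. The level of bmm was 52.9 FPKM in high sugar and 64.2 FPKM in medium sugar sperm, a ratio of 0.824 (95% interval 0.528 to 1.28). In embryos it was 13.8 FPKM with high sugar and 15.2 FPKM with medium sugar fathers, a ratio of 0.905 (0.627 to 1.31). In both tissues bmm was the lower in the high sugar group, by less than its error. Hsl had 10.2 FPKM in high sugar and 9.39 FPKM in medium sugar sperm, a ratio of 1.09 (0.617 to 1.91). In embryos Hsl had 8.08 FPKM with high sugar and 10.8 FPKM with medium sugar fathers, a ratio of 0.752 (0.522 to 1.08). The unadjusted p of this embryo ratio was 0.125 in the authors' deposited table, and 17.0% of all tested embryo genes had a log2 ratio at least as far from 0. The FPKM of bmm was 5.19 times that of Hsl in high sugar and 6.84 times in medium sugar sperm, but only 1.70 times in high sugar and 1.41 times in medium sugar embryos. The genes lie on 3L at 14769596 to 14779523 (bmm) and on 2R at 16145157 to 16149241 (Hsl), each alone in its locus.

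The synthesis enzymes act in sequence. First comes mino, a mitochondrial glycerol phosphate acyltransferase, then Lpin, the lipin phosphatase that turns phosphatidic acid into diacylglycerol, and last mdy, the diacylglycerol acyltransferase that completes triglyceride. The level of mino was 13.6 FPKM in high sugar and 12.2 FPKM in medium sugar sperm, a ratio of 1.12 (95% interval 0.643 to 1.95). In embryos mino had 3.81 FPKM with high sugar and 5.34 FPKM with medium sugar fathers, a ratio of 0.713 (0.464 to 1.10), the smallest ratio of the 9 genes in either tissue. Its unadjusted p in the authors' deposited table for embryos was 0.123, the smallest among the 9, and 13.7% of all tested embryo genes had a log2 ratio at least as far from 0. Lpin had 13.9 FPKM in high sugar and 15.5 FPKM in medium sugar sperm, a ratio of 0.897 (0.492 to 1.64). In embryos Lpin was at 6.11 FPKM with high sugar and 6.04 FPKM with medium sugar fathers, a ratio of 1.01 (0.569 to 1.80). For mdy the values were 11.99 FPKM in high sugar and 6.998 FPKM in medium sugar sperm, a ratio of 1.71, and 44.8 FPKM in high sugar and 38.8 FPKM in medium sugar embryos, a ratio of 1.15 (0.660 to 2.02). The sperm ratio of mdy was the largest of the 9 genes in either tissue, but its interval ran from 0.512 to 5.74 and its unadjusted p was 0.382 in the authors' deposited table. Of the 9 genes, mdy was the only one with ratios above 1 in both tissues.

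All 3 synthesis genes are listed with a locus that other genes share, so the listed start and end may cover more than the gene. The locus of mdy is 2L 16802021 to 16826991, with Cas, CG13280 and CG13272, and that of mino is 3R 23750915 to 23758695, with CG31053. None of these neighbours has an exonic base in common with mdy or mino in the BDGP6 annotation. The locus of Lpin is 2R 4024501 to 4044128, with kermit. There kermit lies on the same strand and overlaps 600 exonic bases of Lpin, 10.9% of its exons, and it had 32.0 FPKM in high sugar and 22.5 FPKM in medium sugar sperm, so the separate level of Lpin is less certain.

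Acsl, a long-chain acyl-CoA synthetase, and Fatp, a fatty acid transport protein, supply activated fatty acids. Acsl was the most abundant of the 9 genes in all 4 groups. It had 68.6 FPKM in high sugar and 79.1 FPKM in medium sugar sperm, a ratio of 0.867 (95% interval 0.567 to 1.33), and 113 FPKM in high sugar and 112 FPKM in medium sugar embryos, a ratio of 1.01 (0.680 to 1.49). Fatp had 19.4 FPKM in high sugar and 20.6 FPKM in medium sugar sperm, a ratio of 0.943 (0.561 to 1.59). In embryos Fatp had 17.7 FPKM with high sugar and 20.6 FPKM with medium sugar fathers, a ratio of 0.860 (0.599 to 1.23). As deposited, the 4 levels of Fatp lay between 17.7 and 20.6 FPKM. The unadjusted p of Acsl was 0.51 in sperm and 0.968 in embryos in the authors' deposited table, and that of Fatp was 0.824 and 0.414. Acsl is listed on 2R at 4553360 to 4570296, with CG30354 and CG30355, which overlap none of its exonic bases in the BDGP6 annotation. Fatp lies on 2L at 10511252 to 10517216, alone in its locus. Its identifier in the tables was not found in the BDGP6 annotation, so its strand and exon overlap were not checked, and the Fatp values are those of the gene model the authors used.

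**Figure D2:**
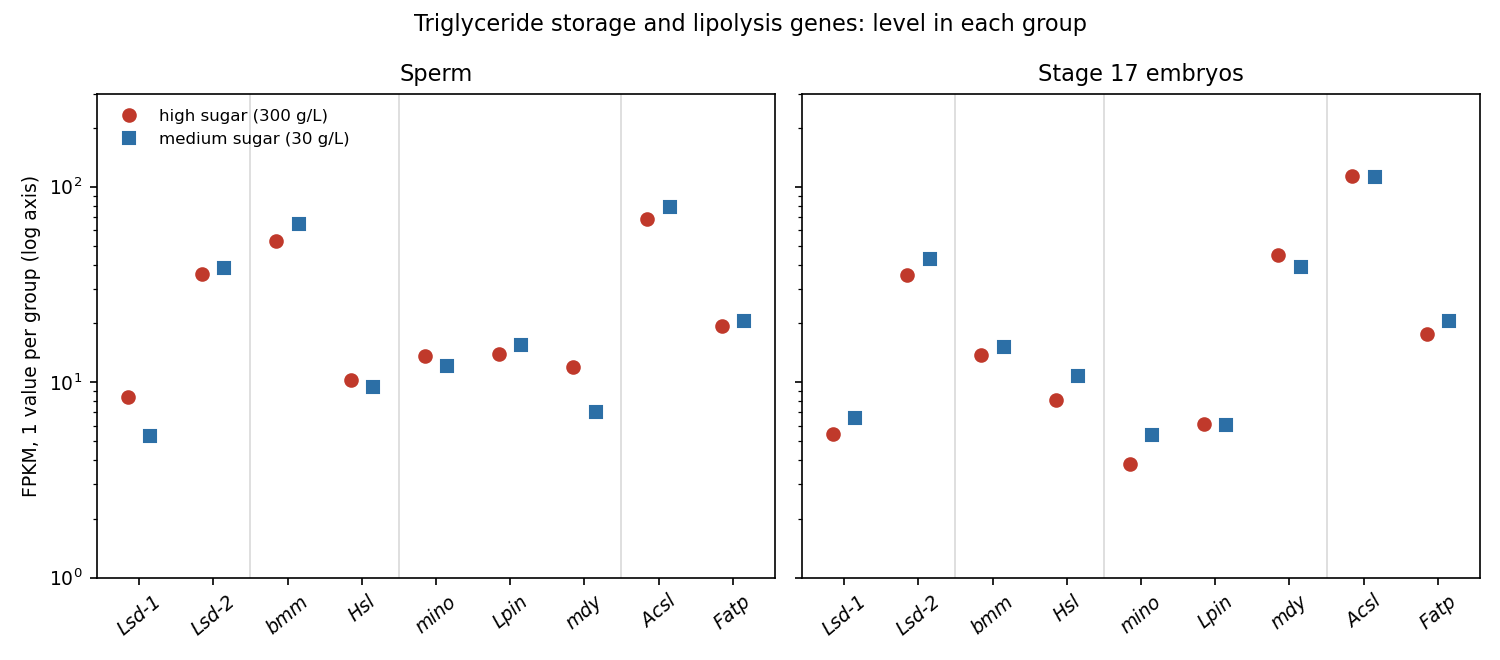
Level of each gene in FPKM (log axis), 1 value per group, in sperm on the left and in stage 17 embryos on the right, for high sugar (circles) and medium sugar (squares). In sperm bmm at 52.9 and 64.2 FPKM stands next to Acsl at the top, while in embryos mdy at 44.8 and 38.8 FPKM takes that place.

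Between the diets of a tissue only neighbours in the order of levels changed places. Between the tissues, bmm ranked 2 in sperm and 5 in embryos, and mdy ranked 7 or 8 in sperm and 2 or 3 in embryos. In sperm Acsl was followed by bmm, Lsd-2, Fatp, Lpin and mino with both diets. Below them came mdy, Hsl and Lsd-1 with high sugar, where mdy and Hsl stood at 11.99 and 10.2 FPKM, and Hsl, mdy and Lsd-1 with medium sugar, where Hsl and mdy stood at 9.39 and 6.998 FPKM. In embryos Acsl, at 113 and 112 FPKM, was followed by mdy and Lsd-2 with high sugar and by Lsd-2 and mdy with medium sugar. Fatp, bmm and Hsl then followed with both diets, and Lpin, Lsd-1 and mino closed the order with high sugar, Lsd-1, Lpin and mino with medium sugar. Acsl exceeded 95.5% of the 15146 genes in high sugar sperm, 96.0% in medium sugar sperm, 95.3% in high sugar embryos and 95.4% in medium sugar embryos. The gene with the lowest level was Lsd-1 in sperm, above 71.7% of genes with high and 63.9% with medium sugar, and mino in embryos, above 50.2% and 56.0%. Neighbours in the order were not tested against each other, since the tables hold no spread per gene within a group.

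The tables also allow each gene's level in sperm to be set beside its level in embryos. Whether the tables were normalized together is not known, so these ratios are descriptions without a test, and they depend on how the tables are scaled. Among the 2692 genes at 10 FPKM or more in both tables, the median log2 ratio of sperm over embryos was -0.65 with high sugar and -0.53 with medium sugar, and scaling the tables to each other removes this shift. Before and after scaling, and with both diets, bmm, mino and Lpin were at least 2-fold higher in sperm and mdy was at least 2-fold lower. Of the 7709 genes at 1 FPKM or more in both tables, 13.8% with high sugar and 13.7% with medium sugar were at least 2-fold higher in sperm, and 39.1% and 38.7% were at least 2-fold lower. These shares are for the tables as deposited, and the shares after scaling were not computed.

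For bmm the sperm and embryo levels were 52.9 and 13.8 FPKM with high sugar, a ratio of 3.85, and 64.2 and 15.2 FPKM with medium sugar, a ratio of 4.23. Scaled, the ratios of bmm were 6.0 and 6.09, above 93.2% and 94.0% of the 7709 genes. The ratios of mino were 3.57 with high sugar and 2.27 with medium sugar (5.50 and 3.26 scaled), and those of Lpin were 2.27 and 2.56 (3.53 and 3.67 scaled). The other acyltransferases of the early synthesis steps showed no common direction. As deposited, CG3209 had 20.4 FPKM in high sugar sperm against 43.9 FPKM in high sugar embryos, and 32.8 against 42.1 FPKM with medium sugar. CG4753 had 1.52 against 45.6 FPKM with high sugar and 0.529 against 51.2 FPKM with medium sugar, and CG3812 had 0.345 against 8.93 FPKM with high sugar and was listed at 0 against 9.14 FPKM with medium sugar. The level of fu12 was 17.9 against 14.9 FPKM with high sugar and 25.7 against 12.03 FPKM with medium sugar, that of CG4729 lay between 25.5 and 27.9 FPKM in all 4 groups, and that of CG15450 was below 1 FPKM in all 4. Of the 9 genes, mdy lay on the low side, with 11.99 FPKM in high sugar sperm against 44.8 FPKM in high sugar embryos, a ratio of 0.268, and 6.998 FPKM in medium sugar sperm against 38.8 FPKM in medium sugar embryos, a ratio of 0.180. Scaled, these were 0.422 and 0.264, and 19.0% and 10.8% of the 7709 genes had a lower ratio than mdy. The other lipase, Hsl, had ratios of 1.26 with high and 0.874 with medium sugar. For Lsd-1, Lsd-2, Hsl and Fatp together the ratios lay between 0.805 and 1.55 as deposited and between 1.17 and 2.42 scaled, so with medium sugar their direction depends on the scale. Acsl was at 0.606 with high sugar and 0.705 with medium sugar as deposited, and at 0.950 and 1.02 scaled.

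Ratios between genes within a table do not depend on its scale. The FPKM of bmm over that of mdy was 4.41 in high sugar and 9.18 in medium sugar sperm, against 0.307 in high sugar and 0.392 in medium sugar embryos. Of this pair, bmm thus had the higher FPKM in sperm and the lower in embryos, with both diets. The pair joins the genes with the highest and the lowest ratio of sperm over embryos, so it restates those ratios. The other lipase, Hsl, was below mdy in high sugar sperm, at 10.2 against 11.99 FPKM, and above it in medium sugar sperm, at 9.39 against 6.998 FPKM. The FPKM of mino over that of mdy was 1.14 and 1.74 in high and medium sugar sperm and 0.0851 and 0.138 in high and medium sugar embryos. For Lpin over mdy these values were 1.16 and 2.21 in sperm and 0.136 and 0.156 in embryos. In sperm the muscle markers, at 3376 and 3504 FPKM with high and medium sugar, stood beside the spermatid markers at 1826 and 802 FPKM. How much of the RNA of these genes came from sperm cells, and how much from other cells, was not tested.

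**Figure D3:**
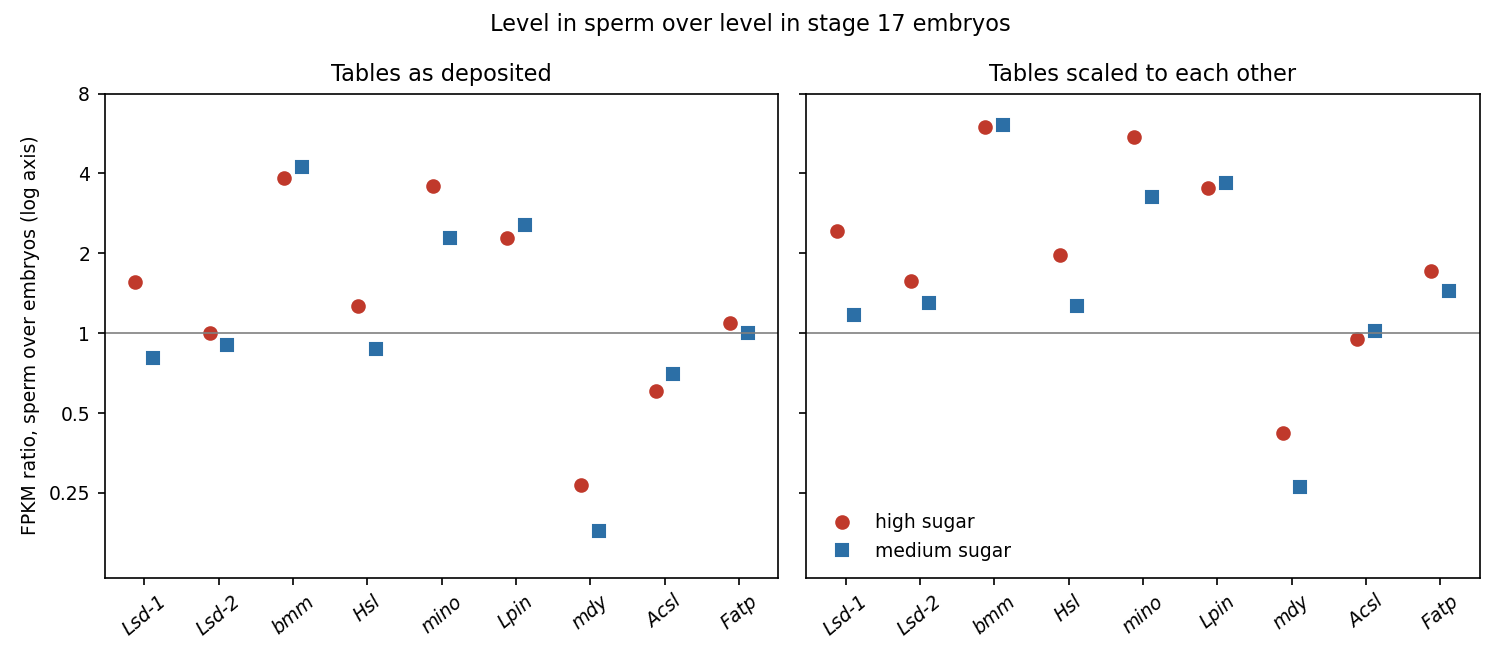
Ratio of FPKM in sperm over FPKM in stage 17 embryos for each gene (log axis), with high sugar (circles) and medium sugar (squares), for the tables as deposited on the left and scaled to each other on the right. In both panels bmm, mino and Lpin lie above 2 and mdy below 1, at 0.268 and 0.180 as deposited.

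The diet ratios were also compared between the tissues. The ratio was above 1 in sperm and below 1 in embryos for Lsd-1, Hsl and mino, the reverse for Lpin and Acsl, below 1 in both for Lsd-2, bmm and Fatp, and above 1 in both for mdy. The difference of the log2 ratios, sperm minus embryos, was 0.65 for mino (95% interval -0.36 to 1.67), 0.53 for Hsl (-0.44 to 1.50) and 0.95 for Lsd-1 (-0.99 to 2.89). All 9 such intervals, built from the implied standard errors, include 0. The counts above and below 1 therefore do not show that the diet ratio differed between the tissues.

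The other genes of the pathway were taken in 6 lists of 60 genes, all of which are in the tables. Of 40 tested genes in sperm 0 were called in the authors' deposited table, and of 57 in embryos also 0. Over all tested genes 0.341% were called in sperm and 0.807% in embryos. Of the pathway genes, 0 in sperm and 1 in embryos had an unadjusted p under 0.05, where 3.95% and 3.34% of all tested genes did. With shares this low, these counts lie near the background, as do those of the single lists below. The median log2 ratio of the tested pathway genes was -0.06 in sperm, with 15 above 0 and 25 below, and 0.06 in embryos, with 33 above and 24 below. The single gene with an unadjusted p under 0.05 was dob, a close relative of bmm, named after its values were seen. It had 0.375 FPKM in high sugar and 1.09 FPKM in medium sugar embryos, and the authors' deposited table gives it an unadjusted p of 0.0371 and, adjusted, 0.999.

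In glycerolipid synthesis outside the 9 genes, 0 of 7 tested were called in sperm (median log2 ratio -0.22, 2 above 0 and 5 below) and 0 of 12 in embryos (median 0.10, 8 above and 4 below). Gpdh, which makes glycerol phosphate, had 135 FPKM in high sugar and 185 FPKM in medium sugar sperm. CG3209, a further glycerol phosphate acyltransferase, had 20.4 FPKM in high sugar and 32.8 FPKM in medium sugar sperm, and 43.9 FPKM in high sugar and 42.1 FPKM in medium sugar embryos. CG4753, an acyltransferase of the next step, had 45.6 FPKM in high sugar and 51.2 FPKM in medium sugar embryos. None of these passed.

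Among the lipid droplet proteins 0 of 7 tested were called in sperm (median -0.04, 2 above 0 and 5 below) and 0 of 8 in embryos (median -0.01, 3 above and 5 below). Both medians turned sign when the ratios were centred on genes at 10 FPKM or more. Jabba (CG42351), which anchors histones on droplets of the early embryo, had 48.0 FPKM in high sugar and 49.4 FPKM in medium sugar sperm. The droplet protein CG2254 had 53.2 FPKM in high sugar and 73.7 FPKM in medium sugar sperm, and 52.2 FPKM in high sugar and 54.9 FPKM in medium sugar embryos. CG9186, a droplet-associated protein, had 57.5 FPKM in high sugar and 57.7 FPKM in medium sugar embryos.

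Of the other lipases and their cofactors 0 of 3 tested were called in sperm (median 0.02, 2 above 0 and 1 below) and 0 of 8 in embryos (median -0.07, 3 above and 5 below). The gene puml (CG1882), the fly relative of the lipase cofactor CGI-58, had 32.5 FPKM in high sugar and 32.0 FPKM in medium sugar sperm. Lip4 had 17.2 FPKM in high sugar and 24.9 FPKM in medium sugar sperm. Lip1 had 36.7 FPKM in high sugar and 44.98 FPKM in medium sugar embryos, and the phospholipase gene PAPLA1 (CG8552) had 33.2 and 33.6 FPKM in high and medium sugar embryos.

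In the list for control of lipolysis 0 of 12 tested were called in sperm (median -0.04, 5 above 0 and 7 below, with the sign turned by centring) and 0 of 13 in embryos (median 0.10, 10 above and 3 below). The catalytic subunit of protein kinase A, Pka-C1, which acts downstream of adipokinetic hormone, had 28.7 FPKM in high sugar and 31.7 FPKM in medium sugar sperm, and 26.2 FPKM in high sugar and 23.0 FPKM in medium sugar embryos. Its regulatory subunit Pka-R2 had 24.7 FPKM in high sugar and 22.6 FPKM in medium sugar sperm, and Pka-R1 had 22.7 FPKM in high sugar and 22.1 FPKM in medium sugar embryos.

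Of the lipoproteins and lipid carriers 0 of 7 tested were called in sperm (median 0.11, 4 above 0 and 3 below) and 0 of 8 in embryos (median -0.11, 2 above and 6 below). Rfabg, the precursor of the main blood lipoprotein lipophorin, had 67.4 FPKM in high sugar and 70.4 FPKM in medium sugar sperm, and 2253 FPKM in high sugar and 2476 FPKM in medium sugar embryos. The lipocalin gene NLaz had 387 FPKM in high sugar and 405 FPKM in medium sugar sperm, and the fatty acid binding protein gene fabp had 243 FPKM in high sugar and 231 FPKM in medium sugar embryos. Of the other acyl-CoA synthetases 0 of 4 tested were called in sperm (median -0.20, all 4 below 0) and 0 of 8 in embryos (median 0.19, 7 above and 1 below). Those with the highest levels were CG12512, at 55.5 FPKM in high sugar and 75.4 FPKM in medium sugar sperm, and CG3394, at 43.7 and 51.9 FPKM. In embryos they were hll (CG4500), at 32.4 FPKM with high sugar and 39.7 FPKM with medium sugar fathers, and CG6178, at 20.8 and 20.7 FPKM.

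**Figure D4:**
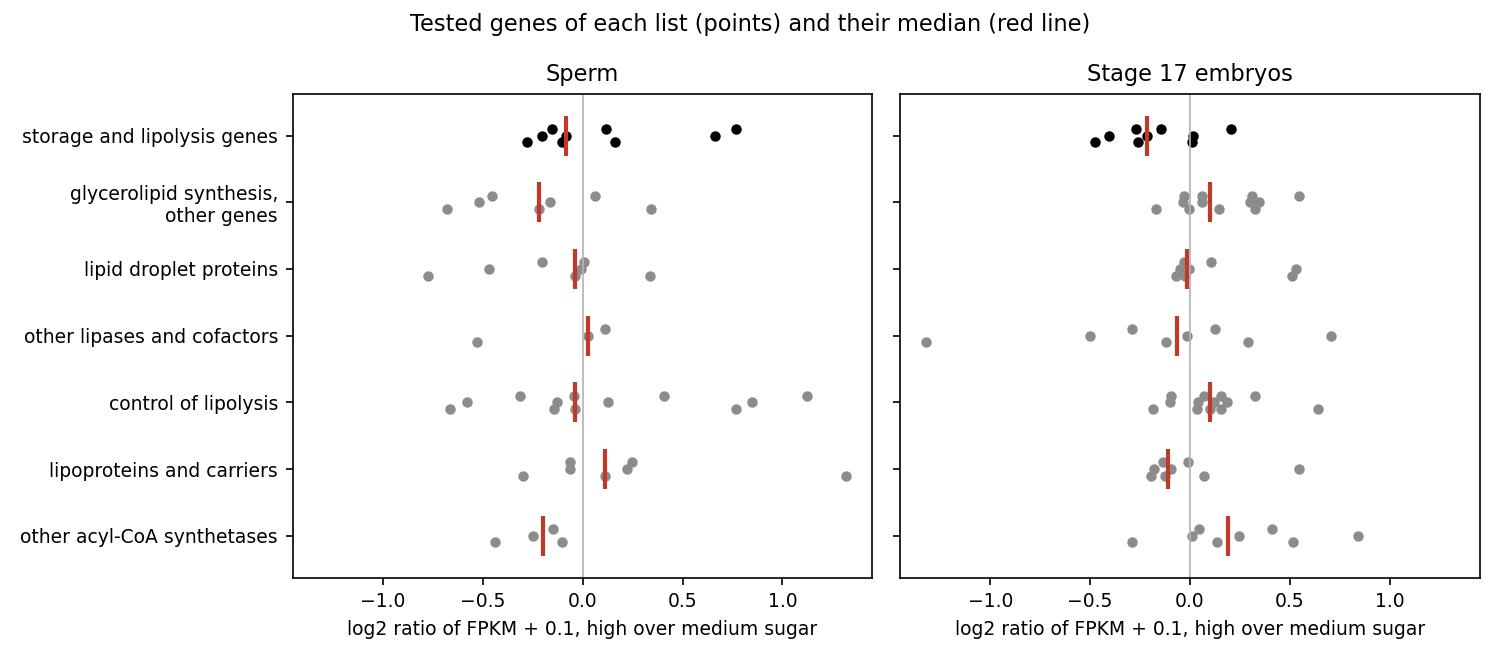
The log2 ratio of FPKM + 0.1, high over medium sugar, of each tested gene (points) and the median of each list (red line), for the 9 storage and lipolysis genes (black) and the 6 lists of further pathway genes (grey), in sperm on the left and in stage 17 embryos on the right. The medians lie between -0.22 and 0.19, and none of the points belongs to a gene called in the authors' deposited tables.

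For each of the 9 genes the most similar other gene was sought among 4754 genes with a given name, as the one whose log2(FPKM + 0.1) stayed closest in all 4 groups. The measure is the largest difference over the 4 groups, expressed as a fold. The nearest were Ptp61F to Hsl (within 1.04-fold), flfl to Fatp (1.06), Mekk1 to Lpin (1.08), CAH2 to Lsd-2 (1.10), Hrb27C to Acsl (1.11), Sym to Lsd-1 (1.12), Atet to bmm (1.12), CTCF to mino (1.12) and blos3 to mdy (1.21). Atet had 56.6 FPKM in high sugar and 67.8 FPKM in medium sugar sperm, and 15.4 FPKM in high sugar and 15.3 FPKM in medium sugar embryos. The likeness rests on 4 values per gene and is a description only.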

How the data were processed

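RNA from 8 libraries, 2 in each of 4 groups, was sequenced after Trizol extraction, depletion of ribosomal RNA and stranded library preparation, per the labels' protocols. Per the submitters' processing notes, the tools were TopHat2 (2.0.8) and Cuffdiff (2.1.1), on BDGP5. The sources used here give neither the annotation nor the options and scaling of these tools. The deposited levels are FPKM per the file headers, with each group's libraries combined into 1 value by the authors. The p-value of each gene, also given with Benjamini-Hochberg adjustment, comes from the authors' test of both groups. The headers of both tables are identical, and the table's name gives the tissue. All columns with levels were used, and 0 were left out.

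A gene was called where it was tested and had a deposited adjusted p under 0.05. The set of tests behind the deposited adjustment is not stated. In sperm it was not the tested genes alone: recomputed over them, the adjustment no longer called Dup99B. Ratios are high over medium sugar. Lists were summarised on the log2 scale with 0.1 FPKM added, which understates changes of low genes. Starts of loci were given 1 more than in the tables, which count from 0. Implied standard errors divide the log2 ratio by the normal quantile of the deposited p, and were added after seeing the data. The adjustment, the implied error and the list median were tested on simulated data. The simulated p-values came from a normal statistic, so this cannot test whether the authors' p-values do. The labels do not tell separate crosses or collections from repeat libraries, so the p-values may measure a technical spread. The 9 genes and the lists were chosen with earlier results of these data known. The text names the 9 genes, and of each pathway list the called genes or, with none called, those with the 2 highest means in each tissue. Also named, outside this rule, were locus neighbours, some markers, dob, the other acyltransferases of the early synthesis steps and the genes under Other observations. For likeness it names the nearest gene with a given name (no CG or CR number, no structural RNA) at 1 FPKM or more. Gene names missing from the tables were matched by identifier to current symbols, and 8 of the 9 genes (all but Fatp) were found in the BDGP6 annotation. That annotation served for strand, exon overlap, protein length and number of transcripts alone. Computation used Python 3.11.15, numpy 2.4.6, pandas 2.3.3 and scipy 1.17.1.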

Additional observations from a re-analysis of the deposited data

How the results depend on the processing

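No paired analysis was possible because the tables hold 1 value per group, and for the same reason no library could be left out. The counts of 0 called genes held in both tissues at adjusted p thresholds of 0.01 and 0.1 and with the adjustment recomputed over tested genes or over genes at 1 FPKM or more. The median diet ratio of the 9 genes kept its sign in both tissues with pseudocounts of 0.01 and 1, with minimum means of 1 and 5 FPKM, with centred ratios, and, added after seeing the data, over the genes alone in their locus. With centred ratios the median was -0.0045 in sperm, against -0.0848 without centring, so its sign there rests on a value close to 0. In embryos it was -0.18, against -0.22. The ratio of each of the 9 genes also kept its sign with both pseudocounts and with centring. Centring turned the list medians of droplet proteins to 0.0225 in embryos and 0.0394 in sperm, and that of control of lipolysis in sperm to 0.0395. Scaling the tables to each other moved the median log2 ratio of sperm over embryos from 0.33 to 0.98 with high sugar and turned it from -0.15 to 0.38 with medium sugar. With medium sugar it also turned Lsd-1 (0.23), Lsd-2 (0.38), Hsl (0.34), Acsl (0.0293) and Fatp (0.53). These changes follow from subtracting 1 shift from all genes of a table. Depth is unknown, and the smallest diet change that could pass is set by the implied errors and by the authors' adjustment.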

Other observations

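Several lipid genes outside the 9 had levels far apart in sperm and in embryos. They were chosen after their values were seen, and whether the tables were normalized together is not known. The lipase gene Lip1 was listed at 0 in high and medium sugar sperm and had 36.7 and 44.98 FPKM in high and medium sugar embryos. The acyl-CoA synthetase gene hll (CG4500) was likewise listed at 0 in both sperm groups, with 32.4 and 39.7 FPKM in high and medium sugar embryos. A relative of the diacylglycerol acyltransferases, CG1946, was listed at 0 in both sperm groups and had 3.04 and 2.91 FPKM in high and medium sugar embryos. CG1941, a further relative, had 0.181 FPKM in high sugar and 1.91 FPKM in medium sugar sperm, against 31.3 FPKM in high sugar and 25.4 FPKM in medium sugar embryos. Jabba ran the other way, with 48.0 and 49.4 FPKM in high and medium sugar sperm and 2.23 and 1.51 FPKM in high and medium sugar embryos.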
